A study of Sus scrofa with 24 samples.

Results

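A set of 9 symbols was looked up in a table of 25462 genes, all of them complement genes that the stroma of fat is known to express: *MASP1*, *C1R*, *C1S*, *C3*, *CFB*, *CFD*, *CFI*, *SERPING1* and *CD55*. Of these 9 genes, 6 had a row in the table (*MASP1*, *C3*, *CFB*, *CFD*, *CFI* and *SERPING1*), and *C1R*, *C1S* and *CD55* were not analysed here. The genes were chosen by family, with earlier results of the same libraries already known, among them the lower level of *MASP1* in intramuscular cells on day 0. The difference between depots on day 0 is therefore described without a test for these genes, and the p-values of the other comparisons take no account of that choice.

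The libraries held polyadenylated RNA of primary preadipocytes, the precursors of fat cells, from Yorkshire pigs aged 6 days. Cells came from the subcutaneous fat of the back (BF) or from digested tissue of the longissimus dorsi, a long muscle beside the spine (intramuscular, IMF). Each depot was sampled on days 0, 2, 4 and 8 of culture with 3 replicates, so that 8 groups of 3 made 24 libraries, and BF-4d stands for subcutaneous cells on day 4. BF-0d and IMF-0d were cells before induction, day 2 ended the induction with IBMX (a phosphodiesterase inhibitor), dexamethasone (a glucocorticoid) and insulin, day 4 followed medium with insulin, and day 8 followed a return to growth medium. Day and medium moved together in both depots and cannot be told apart. The study used 3 piglets, but the labels do not tie a library to an animal or a culture, so the p-values measure the spread between these libraries, which may be technical.

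Complement is a cascade of blood proteases and their substrates that marks surfaces for removal. Its classical, lectin and alternative routes all meet at the cleavage of *C3*, and inhibitors in the fluid and on cells keep that step in check. The liver makes most of the circulating proteins, whereas fat is the known main source of complement factor D, first described as adipsin. Fibroblast-like stromal cells also make early components, and cytokines of inflammation raise several of them in many cell types.

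Levels are FPKM, fragments scaled by the authors to transcript length and to the mapped fragments of the library, and the depth behind them is unknown. Differences are on the log2(FPKM + 1) scale, later minus earlier day or IMF minus BF, each with its standard error (SE) and with limma's p adjusted over 16135 tested genes. A gene was called at an adjusted p below 0.01 together with a difference of at least 1 in either direction. All 6 genes passed the filter on low values.

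Stromal genes were high in every library. The 7 stromal markers found in the table (of 8 listed, collagens, *DCN*, *LUM* and growth factor receptors among them) summed to 3943 to 14837 FPKM per library. Their sum was lower on day 8 than on day 0, with 13573 to 14837 FPKM in BF-0d, 5390 to 5948 FPKM in BF-8d, 14159 to 14415 FPKM in IMF-0d and 7294 to 8355 FPKM in IMF-8d. BF-4d had 3943 to 6070 FPKM, although the means of *C3*, *CFB* and *CFD* were lower there than in BF-8d. Such a sum follows its highest genes. From day 0 to day 8, 3 of the 7 markers were called lower and 1 higher in BF cells, and 1 lower and 1 higher in IMF cells. *COL1A1*, a chain of type I collagen, fell from day 0 to day 8 by 2.77 (SE 0.27, limma adjusted p = 6.03e-08) in BF and by 1.58 (SE 0.27, limma adjusted p = 9.79e-05) in IMF cells, while *PDGFRA* rose by 1.51 (SE 0.24, limma adjusted p = 3.31e-05) and by 1.89 (SE 0.24, limma adjusted p = 4.47e-06). The part of these shifts in the complement values was not tested. The adipocyte markers (8 of 8 in the table) summed to 9.16 to 10.9 FPKM in BF-0d and 281 to 622 FPKM in BF-8d, and to 2.79 to 3.67 FPKM in IMF-0d and 97.2 to 143 FPKM in IMF-8d. On day 8 most of that sum was *LPL*, lipoprotein lipase, which rose from day 0 to day 8 by 6.98 (SE 0.58, limma adjusted p = 1.47e-08) in BF and by 5.86 (SE 0.58, limma adjusted p = 2.61e-07) in IMF cells. *PPARG*, the master regulator of adipogenesis, was called lower in BF-8d than in BF-0d (-1.04, SE 0.29, limma adjusted p = 0.0061), and *CEBPA*, *FABP4* and *CIDEC* were not called over those days in either depot. The defining adipocyte genes *ADIPOQ*, *PLIN1* and *LEP* stayed below 1 FPKM in each of the 24 libraries. Immune markers (7 of 7 in the table) summed to 5.37 to 6.81 FPKM in BF-0d and 8.06 to 13.3 FPKM in BF-8d, and to 6.76 to 7.61 FPKM in IMF-0d and 8.85 to 11.12 FPKM in IMF-8d, above the 4.09 to 7.61 FPKM of all earlier IMF days, with *PTPRC*, *CSF1R*, *CD163* and *LYZ* below 1 FPKM throughout, and *CDH5*, *KDR* and *TEK* of the 5 endothelial markers in the table were below 1 FPKM throughout. Of the 8 myogenic markers, *DES* alone reached 1 FPKM, and their sum was 29.7 to 45.4 FPKM in IMF-0d and 1.38 to 2.25 FPKM in IMF-8d. In bulk RNA, fewer cells of a type and less RNA per cell cannot be told apart.

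The mean level stood highest on day 8 for *C3*, *CFB* and *CFD* in BF cells and for 5 of the 6 genes in IMF cells, all but *CFI*. The BF mean of *SERPING1* was 66.4 FPKM on day 8 and 60.7 FPKM on day 0, with libraries that overlapped, and it was above the day 0 mean through replicate 2 alone. In IMF cells 5 of the 6 rose together between day 4 and day 8, and *C3* rose most. BF cells had already held more *MASP1*, *C3*, *CFB* and *CFD* than IMF cells on days 0, 2 and 4. By day 8 the depots were within the replicate spread for *MASP1*, IMF cells held more *CFB*, and BF cells still held more *CFD*. Of the regulators, *CFI* was lower in BF cells on days 4 and 8, and *SERPING1* stood highest in IMF-8d.

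**Figure D1:**
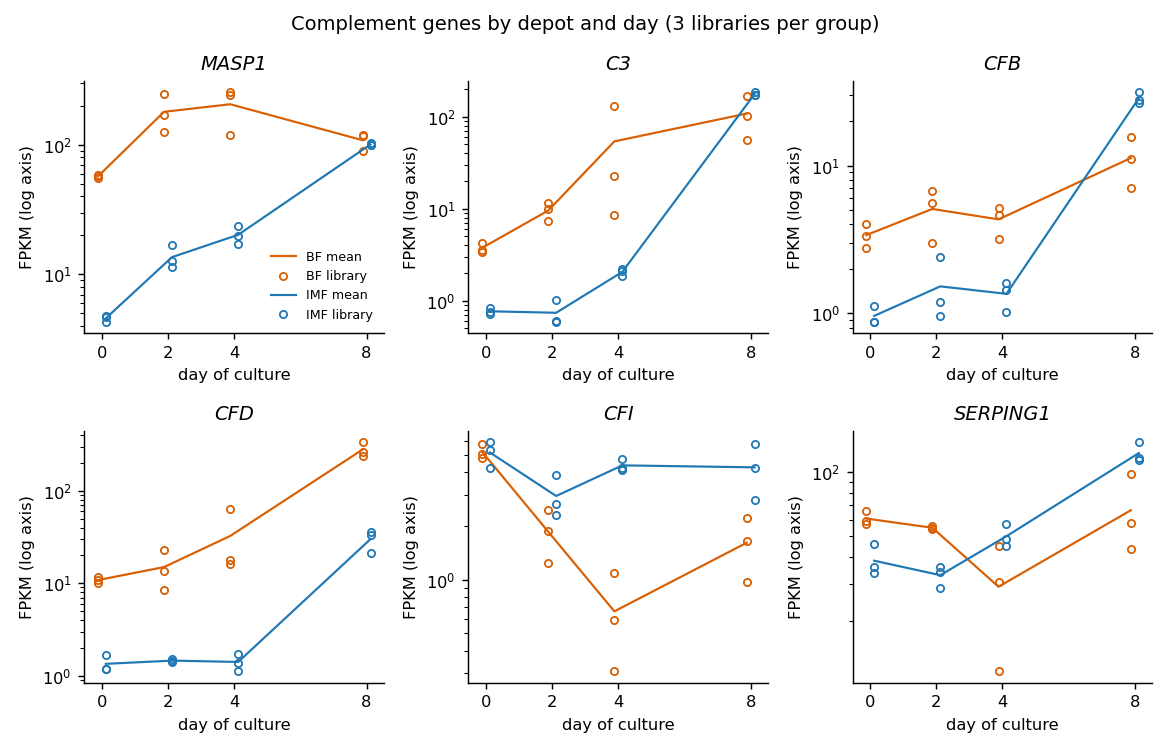
FPKM (log axis) of 6 complement genes against the day of culture, with 1 circle per library, 3 libraries per group, and lines through the group means (BF orange, IMF blue). The IMF means of *C3*, *CFB* and *CFD* are 2.06, 1.35 and 1.40 FPKM on day 4 and 177, 28.5 and 30.0 FPKM on day 8, while *CFI* separates in the opposite way, with a BF-4d mean of 0.665 FPKM.

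*MASP1* (ENSSSCG00000011806) encodes a serine protease that circulates with lectins bound to sugars, and a splice form of it, MASP-3, is known to activate factor D. The gene lies on the minus strand of chromosome 13 in Sscrofa11.1, from 124938469 to 125028440, and overlaps with *RTP1* and *LOC110256383* on the other strand, of which *RTP1* held at most 0.552 FPKM. Its FPKM in BF-0d was 57.1, 58.4 and 55.5 in replicates 1, 2 and 3. In BF-2d the values were 245, 169 and 125, and in BF-4d they were 243, 253 and 120. In BF-8d they were 118, 89.8 and 118. Every BF-2d and BF-4d library was above every BF-0d and BF-8d library, so *MASP1* stood highest in the middle of BF culture. IMF cells took another course. In IMF-0d the replicates had 4.33, 4.77 and 4.68 FPKM, in IMF-2d 12.7, 16.8 and 11.3 FPKM, and in IMF-4d 23.5, 19.9 and 17.2 FPKM. In IMF-8d they had 99.4, 103 and 100.1 FPKM. No library of one IMF day overlapped with a library of another, and the order of the means followed the days.

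*MASP1* was called in the first interval of both depots. The IMF rise starts from the low IMF-0d level that was known beforehand, so its p-value is a description only. From day 0 to day 2 it rose by 1.59 (SE 0.24, limma adjusted p = 4.67e-05) in BF cells and by 1.37 (SE 0.24, limma adjusted p = 0.00117) in IMF cells, which are 3.15-fold and 2.96-fold in mean FPKM. Over the last step it rose by 2.27 (SE 0.24, limma adjusted p = 5.49e-07) in IMF cells, 4.98-fold in mean FPKM, while the BF difference was -0.85 (SE 0.24, limma adjusted p = 0.0162) and was not called. That pair of changes differed by 3.12 (SE 0.34, limma adjusted p = 2.94e-06), with differences between the depots of -3.22 on day 4 and -0.09 on day 8. The contrasts from day 0 were -0.22 to day 2 and 3.28 to day 8, which are given without a test because they hold the day 0 difference of -3.38 that was known beforehand. Without IMF-2d replicate 2 the IMF change to day 2 was 1.22 (limma adjusted p = 0.0122) and was not called, and without BF-4d replicate 3 the BF difference from day 4 to day 8 was -1.20 (limma adjusted p = 2.37e-04) and was called. In a fit of only BF-0d and BF-2d the first BF rise kept its size with an adjusted p of 0.0126.

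*C3* (ENSSSCG00000013551), the component on which all routes converge, lies on the plus strand of chromosome 2 from 72431470 to 72471622. BF-0d had 4.26, 3.60 and 3.38 FPKM and BF-2d had 11.5, 9.82 and 7.28 FPKM. The 3 BF-4d libraries were spread from 8.51 FPKM in replicate 2 over 22.9 FPKM in replicate 1 to 130.3 FPKM in replicate 3. BF-8d had 56.0, 167 and 102 FPKM, a range that overlaps with that of BF-4d. IMF libraries were far closer to each other. Before day 4, *C3* in IMF cells lay near or below 1 FPKM, with 0.745, 0.843 and 0.714 FPKM in IMF-0d and 0.592, 1.02 and 0.604 FPKM in IMF-2d. IMF-4d had 2.10, 1.86 and 2.22 FPKM, and IMF-8d had 173, 174 and 183 FPKM. Each IMF-8d library was above every other library of the series.

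The IMF rise of *C3* from day 4 to day 8 was 5.86 (SE 0.56, limma adjusted p = 2.64e-07), 85.9-fold in mean FPKM, and from day 0 to day 8 it was 6.65 (SE 0.56, limma adjusted p = 3.51e-08). In BF cells *C3* rose by 4.39 (SE 0.56, limma adjusted p = 2.90e-06) from day 0 to day 8, 28.8-fold in mean FPKM, but no single BF interval was called. The BF differences were 1.13 (SE 0.56, limma adjusted p = 0.136) to day 2, 1.58 (SE 0.56, limma adjusted p = 0.047) to day 4 and 1.68 (SE 0.56, limma adjusted p = 0.0423) to day 8. The interval in which BF cells gained *C3* depended on a single library. Without BF-4d replicate 3 the step from day 4 to day 8 was 2.72 (limma adjusted p = 7.32e-06), and without BF-4d replicate 2 the step from day 2 to day 4 was 2.43 (limma adjusted p = 0.00149). The IMF change from day 4 to day 8 exceeded the BF change by 4.18 (SE 0.79, limma adjusted p = 0.00109), and with only those 4 groups in the fit the adjusted p was 0.0209.

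*CFB* and *CFD* form the amplification loop of the alternative route: factor B binds to cleaved C3, and factor D cuts it there, which yields the C3 convertase. *CFB* (ENSSSCG00000024914) lies on the plus strand of chromosome 7 from 24034077 to 24040523, 35 bases after *C2* on the same strand and 2 bases from *NELFE* on the other. Whether the libraries kept the strand is not given in the sources used here, and *NELFE* held 6.42 to 16.9 FPKM over the 24 libraries. *CFD* (ENSSSCG00000013418) lies on the minus strand of chromosome 2 from 77509792 to 77511988, inside *MED16* on the plus strand, so that fragments of the 2 genes can be confused. *MED16* held 9.10 to 15.1 FPKM over the 24 libraries, a range far narrower than that of *CFD*.

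*CFB* had 4.01, 3.36 and 2.78 FPKM in BF-0d, 5.56, 6.69 and 3.01 FPKM in BF-2d, and 5.17, 3.20 and 4.60 FPKM in BF-4d. The first 3 BF groups overlapped with each other. In BF-8d the values were 7.09, 15.5 and 11.13 FPKM, all above the earlier BF libraries. IMF-0d had 0.879, 1.12 and 0.879 FPKM, IMF-2d had 1.18, 2.42 and 0.965 FPKM, and IMF-4d had 1.44, 1.59 and 1.03 FPKM. IMF-8d then had 31.2, 27.9 and 26.5 FPKM, the highest 3 values of the series for this gene. In the last step, day 4 to day 8, *CFB* rose by 3.65 (SE 0.25, limma adjusted p = 1.74e-09) in IMF cells, 21.1-fold in mean FPKM, and by 1.16 (SE 0.25, limma adjusted p = 0.00305) in BF cells. The IMF change was larger by 2.49 (SE 0.35, limma adjusted p = 6.85e-05). Over the whole course, day 0 to day 8, the rises were 3.91 (SE 0.25, limma adjusted p = 5.49e-10) in IMF and 1.43 (SE 0.25, limma adjusted p = 8.54e-05) in BF cells, a difference of 2.48 (SE 0.35, limma adjusted p = 7.66e-05). The BF call from day 4 to day 8 was lost without BF-4d replicate 2 (0.998, limma adjusted p = 0.0231), BF-8d replicate 2 (0.92, limma adjusted p = 0.025) or BF-8d replicate 3 (1.14, limma adjusted p = 0.0135). It was also lost when only those 2 groups were fitted (adjusted p = 0.081).

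*CFD* rose late in both depots. BF-0d had 9.98, 10.9 and 11.6 FPKM and BF-2d had 13.7, 22.7 and 8.43 FPKM. BF-4d had 16.3, 18.1 and 63.2 FPKM, with replicate 3 far above the other two. BF-8d had 267, 237 and 336 FPKM. In IMF cells the values hardly moved at first, with 1.17, 1.17 and 1.67 FPKM in IMF-0d, 1.39, 1.44 and 1.52 FPKM in IMF-2d and 1.72, 1.11 and 1.38 FPKM in IMF-4d. IMF-8d had 35.6, 21.1 and 33.5 FPKM, which overlapped with BF-4d and BF-2d but not with BF-8d. *CFD* rose in the last step by 3.33 (SE 0.36, limma adjusted p = 3.11e-06) in BF and by 3.66 (SE 0.36, limma adjusted p = 2.27e-07) in IMF cells, which are 8.62-fold and 21.4-fold in mean FPKM. These changes differed by 0.33 (SE 0.51, limma adjusted p = 0.709). Over day 0 to day 8 the rises were 4.56 (SE 0.36, limma adjusted p = 4.18e-09) in BF and 3.70 (SE 0.36, limma adjusted p = 1.27e-07) in IMF cells. With BF-4d and BF-8d fitted alone, the BF step kept its size at an adjusted p of 0.0381.

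*CFI* (ENSSSCG00000009138) encodes factor I, the protease that inactivates cleaved C3 and C4, and lies on the plus strand of chromosome 8 from 112430824 to 112470844. In BF-0d it had 5.77, 4.80 and 5.08 FPKM, in BF-2d 2.46, 1.23 and 1.89 FPKM, and in BF-4d 1.09, 0.593 and 0.306 FPKM. These 3 groups did not overlap. BF-8d had 0.965, 2.22 and 1.65 FPKM. In IMF cells *CFI* stayed between 2.30 and 5.90 FPKM in the 12 libraries, with 5.90, 4.25 and 5.34 FPKM in IMF-0d, 3.87, 2.30 and 2.67 FPKM in IMF-2d, 4.21, 4.77 and 4.15 FPKM in IMF-4d, and 4.22, 5.78 and 2.80 FPKM in IMF-8d. *CFI* fell by 1.14 (SE 0.22, limma adjusted p = 5.85e-04) from day 0 to day 2 in BF cells and was lower on day 8 than on day 0, with a difference of -1.28 (SE 0.22, limma adjusted p = 7.85e-05). No IMF interval was called, and from day 0 to day 8 the IMF difference was -0.26 (SE 0.22, limma adjusted p = 0.395). The depots' changes from day 0 to day 8 differed by 1.02 (SE 0.31, limma adjusted p = 0.0282), which was not called. The call to day 2 was lost without BF-2d replicate 2 (-0.97, limma adjusted p = 0.00583), under quantile normalization (-0.98, adjusted p = 0.00199), and with only BF-0d and BF-2d in the fit (adjusted p = 0.0151).

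*SERPING1* (ENSSSCG00000013181), which encodes the C1 inhibitor of the classical and lectin proteases, lies on the minus strand of chromosome 2 from 13324160 to 13338826. It had 57.5, 59.0 and 65.7 FPKM in BF-0d and 54.6, 54.4 and 55.9 FPKM in BF-2d. BF-4d had 44.9, 30.6 and 11.6 FPKM and BF-8d had 43.5, 97.9 and 57.9 FPKM, so that the replicates spread apart from day 4 on. IMF-0d had 33.6, 36.0 and 45.9 FPKM, IMF-2d 34.0, 36.0 and 28.7 FPKM, and IMF-4d 57.1, 48.4 and 44.9 FPKM. IMF-8d had 117, 114 and 139 FPKM, above every other library. *SERPING1* rose by 1.66 (SE 0.31, limma adjusted p = 2.97e-04) from day 0 to day 8 in IMF cells, while the BF difference was 0.05 (SE 0.31, limma adjusted p = 0.919). Those changes differed by 1.61 (SE 0.44, limma adjusted p = 0.015), which was not called. It was called without BF-8d replicate 2 (1.93, limma adjusted p = 0.00483).

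From day 4 to day 8 *SERPING1* rose by 1.28 (SE 0.31, limma adjusted p = 0.00341) in IMF and by 1.27 (SE 0.31, limma adjusted p = 0.00739) in BF cells, and both calls were fragile. The BF value was 0.74 without BF-4d replicate 3 (limma adjusted p = 0.0232), 0.96 without BF-8d replicate 2 (limma adjusted p = 0.0566), 1.41 without BF-4d replicate 2 (limma adjusted p = 0.0137) and 1.33 without BF-8d replicate 3 (limma adjusted p = 0.019). None of these was called, nor was the value without the filter on low values (adjusted p = 0.0138) or with only those 2 groups (adjusted p = 0.187). The IMF value stayed between 1.20 and 1.38 with 1 library left out but was not called without IMF-4d replicate 2 (limma adjusted p = 0.0133), IMF-4d replicate 3 (limma adjusted p = 0.0165), IMF-8d replicate 1 (limma adjusted p = 0.0103) or IMF-8d replicate 3 (limma adjusted p = 0.0173).

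Counted over the 6 genes, the calls fell mostly in the last step. Steps that meet on a day share the libraries of that day. From day 0 to day 2, BF cells had 1 gene called higher and 1 lower, where 2.71% of all tested genes were called higher and 3.87% lower. IMF cells had 1 called higher, against 0.328% of all genes higher and 0.459% lower. That gene was *MASP1*, whose low IMF-0d level was known beforehand. From day 2 to day 4 limma called 0 of the 6 in either depot, with 4 in BF and 2 in IMF cells at an unadjusted p below 0.05 (36.5% and 8.34% of all genes). The shares of all genes were 2.01% higher and 1.34% lower in BF and 0.0372% in either direction in IMF cells. Leaving out BF-4d replicate 1 called *SERPING1* in the BF step (-1.49, limma adjusted p = 0.00138), beside *C3* above, and a pseudocount of 0.1 called *CFI* (-1.44, adjusted p = 0.0051).

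From day 4 to day 8, 5 of the 6 were called higher in IMF cells, against 4.16% of all genes higher and 3.08% lower, and 3 of the 6 were called higher in BF cells, against 1.78% higher and 1.14% lower. Without BF-4d replicate 2, BF-8d replicate 2 or BF-8d replicate 3, 1 gene (*CFD*) was called in that BF step. The median difference of the 6 genes was 2.96 in IMF and 1.22 in BF cells, where the medians of all tested genes were -0.07 and -0.05. Between day 0 and day 8 the calls were 5 higher in IMF cells, against 4.56% higher and 4.49% lower, and 3 higher and 1 lower in BF cells, against 6.28% higher and 7.39% lower. The IMF count includes *MASP1*, whose low IMF-0d level was known beforehand. Without BF-8d replicate 2, *MASP1* was called as well in BF cells (1.04, limma adjusted p = 0.00355), where it had 0.91 (SE 0.24, limma adjusted p = 0.00346) with all libraries, and it was also called there under median-ratio scaling (1.11, limma adjusted p = 8.49e-04). Scaling the libraries by median ratios moved the median of all genes by 0.107 to 0.153 in these long comparisons and in the steps from day 4 to day 8, and changed no direction of a called gene of the 6.

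**Figure D2:**
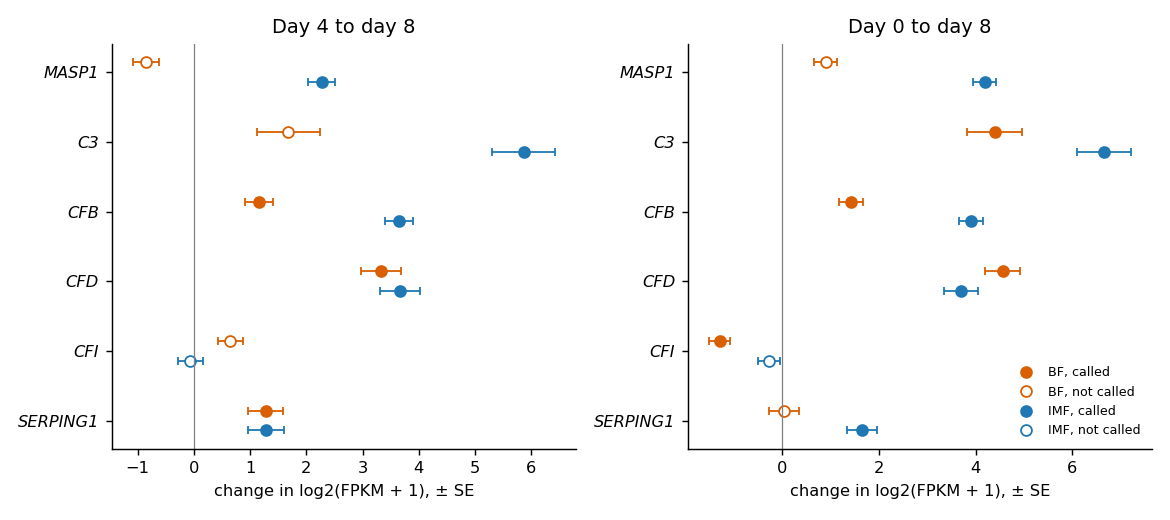
Change in log2(FPKM + 1) with its SE for 6 complement genes from day 4 to day 8 (left) and from day 0 to day 8 (right), BF in orange and IMF in blue, with filled points for called changes. In IMF cells *MASP1*, *C3*, *CFB*, *CFD* and *SERPING1* are called in both panels, from 1.28 for *SERPING1* to 6.65 for *C3*, and *CFI* lies near 0. The IMF change of *MASP1* on the right starts from a day 0 level known beforehand.

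Sequences just upstream are shown for 4 of the 5 genes that rose together in IMF cells, since a shared upstream feature is the first thing to look for in such a group. They are the 250 bases before the RefSeq gene start on the gene's strand in Sscrofa11.1. The start of a RefSeq model may not be the start used in these cells. The window of *CFB* overlaps with *C2* and is given only by its matches. The capitals mark matches to 1 of 5 motifs searched on both strands.
MASP1, 13:125028441-125028690, minus strand: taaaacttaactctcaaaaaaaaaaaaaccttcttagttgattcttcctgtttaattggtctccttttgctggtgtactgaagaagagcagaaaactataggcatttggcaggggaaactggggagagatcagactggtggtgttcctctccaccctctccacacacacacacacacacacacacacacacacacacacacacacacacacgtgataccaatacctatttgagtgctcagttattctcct
C3, 2:72431220-72431469, plus strand: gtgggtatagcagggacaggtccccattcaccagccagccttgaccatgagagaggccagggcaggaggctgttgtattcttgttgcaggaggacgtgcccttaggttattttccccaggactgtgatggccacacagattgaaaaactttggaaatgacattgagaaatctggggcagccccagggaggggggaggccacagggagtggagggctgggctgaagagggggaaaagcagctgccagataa
CFD, 2:77511989-77512238, minus strand: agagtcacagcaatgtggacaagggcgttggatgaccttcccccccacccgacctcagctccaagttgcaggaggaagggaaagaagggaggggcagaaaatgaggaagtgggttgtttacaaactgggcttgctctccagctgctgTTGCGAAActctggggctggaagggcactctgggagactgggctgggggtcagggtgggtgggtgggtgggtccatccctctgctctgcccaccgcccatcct
SERPING1, 2:13338827-13339076, minus strand: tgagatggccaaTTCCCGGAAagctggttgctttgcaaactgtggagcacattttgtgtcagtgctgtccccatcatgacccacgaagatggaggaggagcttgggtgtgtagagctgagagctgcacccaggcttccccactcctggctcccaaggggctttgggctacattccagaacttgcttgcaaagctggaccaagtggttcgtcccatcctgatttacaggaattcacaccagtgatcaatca

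The motifs were C/EBP (TTNNGCAA), the gamma-activated element (TTCNNNGAA), the interferon-stimulated element (GAAA, any 2 bases, then GAAA), the kappaB site by name, and TATAAA. The shares of 19531 promoter windows of the same length that held a match were 8.20%, 6.11%, 3.01%, 14% and 9.76% in that order. *CFD* held 1 C/EBP match, TTGCGAAA as read on the gene's strand, 103 to 96 bases before the start. *SERPING1* held 1 gamma-activated match, TTCCCGGAA, 238 to 230 bases before the start. *CFB* held 2 kappaB matches, GGGAACCTCC at 155 to 146 bases and GGAATTTCCC at 79 to 70 bases before the start. *CFI*, which did not rise with the others, held the interferon-stimulated letters GAAAAGGAAA 237 to 228 bases before its start. The windows of *MASP1* and *C3* held none of the 5 motifs, which says only that these letters are not there. No motif was shared by any pair of the 5 genes.

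Between the depots, 4 genes were lower in IMF cells before day 8. On day 0, given as a description, the mean of *MASP1* was 57.0 FPKM in BF and 4.59 FPKM in IMF cells, 12.4-fold apart, and the libraries did not overlap. *CFD* was 8.07-fold, *C3* 4.88-fold and *CFB* 3.52-fold higher in BF-0d than in IMF-0d, without overlap. *SERPING1* was 1.58-fold higher in BF-0d without overlap, and *CFI* was 1.01-fold higher with overlap. Across all tested genes 0.713% were called lower and 1.87% higher in IMF-0d, and nothing is read from these shares for the 6 genes. Median-ratio scaling moved the median of all genes by -0.105 to -0.134 in the depot differences of days 2, 4 and 8.

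On day 2, 4 of the 6 genes were called lower in IMF cells and 0 higher, where 2.02% of all genes were called lower and 2.71% higher. The differences were -3.59 (SE 0.24, limma adjusted p = 2.10e-09) for *MASP1*, -2.60 (SE 0.36, limma adjusted p = 3.45e-05) for *CFD*, -2.59 (SE 0.56, limma adjusted p = 0.00257) for *C3* and -1.26 (SE 0.25, limma adjusted p = 0.00116) for *CFB*. *CFI* and *SERPING1* had 0.47 (SE 0.22, limma adjusted p = 0.127) and -0.73 (SE 0.31, limma adjusted p = 0.0923). *C3* was not called without BF-2d replicate 1 (-2.45, limma adjusted p = 0.0124), BF-2d replicate 2 (-2.56, limma adjusted p = 0.0139), IMF-2d replicate 1 (-2.53, limma adjusted p = 0.012) or IMF-2d replicate 3 (-2.53, limma adjusted p = 0.0127), nor was *CFB* without BF-2d replicate 2 (-1.07, limma adjusted p = 0.0115) or IMF-2d replicate 3 (-1.10, limma adjusted p = 0.0106), so that 2 calls were left without either of those last 2 libraries. With only BF-2d and IMF-2d fitted, the adjusted p was 0.067 for *CFB* and 0.0114 for *CFD*.

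On day 4, the same 4 genes were called lower in IMF cells and *CFI* higher, where 4.72% of all genes were called lower and 6.6% higher. The differences were -3.53 (SE 0.36, limma adjusted p = 2.05e-07) for *CFD*, -3.34 (SE 0.56, limma adjusted p = 9.09e-05) for *C3*, -3.22 (SE 0.24, limma adjusted p = 3.26e-09) for *MASP1* and -1.17 (SE 0.25, limma adjusted p = 8.41e-04) for *CFB*. *CFI* was higher by 1.72 (SE 0.22, limma adjusted p = 4.18e-06), with means of 4.37 FPKM in IMF-4d and 0.665 FPKM in BF-4d. *SERPING1* had 0.95 (SE 0.31, limma adjusted p = 0.0191) and was called without BF-4d replicate 1 (1.35, limma adjusted p = 0.00115). The *C3* difference had an adjusted p of 0.0247 with only these 2 groups in the fit.

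Markers of other kinds differed between the depots on the same days. Of 11 tested inflammatory response genes, 9 were called lower in IMF cells on day 2, and on day 4 8 were called lower and 1 (*LCN2*) higher. The day 4 differences ran from -9.50 (SE 0.77, limma adjusted p = 2.01e-08) for *CXCL8*, a chemokine, to 2.59 (SE 0.33, limma adjusted p = 3.73e-06) for *LCN2*, lipocalin 2. Of 15 interferon response genes, 3 were called higher in IMF cells on day 2 and 12 on day 4, and 0 lower. Of 7 stromal markers, *PDGFRA* alone was called on day 2, lower in IMF cells, and on day 4 *COL1A1*, *COL1A2* and *DCN* were called higher and *PDGFRA* and *PDGFRB* lower. Of 5 adipocyte markers, 3 were called lower on day 2 and *LPL* alone on day 4 (-5.06, SE 0.58, limma adjusted p = 1.36e-06). *DES*, desmin of muscle cells and the 1 myogenic marker tested, was called higher on both days, and 0 of 3 immune and 0 of 2 endothelial markers were called. As sums over the lists, BF-4d held 3196 to 20781 FPKM of inflammatory, 107 to 409 FPKM of interferon, 3943 to 6070 FPKM of stromal, 182 to 318 FPKM of adipocyte and 0.0752 to 0.130 FPKM of myogenic genes. In the same order IMF-4d held 710 to 756, 1201 to 1437, 12501 to 12704, 11.4 to 14.3 and 10.1 to 13.2 FPKM. The part of these markers in the depot differences of the 6 genes was not tested.

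On day 8 the pattern was split. *CFD* was lower in IMF cells, with a difference of -3.20 (SE 0.36, limma adjusted p = 1.27e-06), with means of 280 FPKM in BF-8d and 30.0 FPKM in IMF-8d. *CFB* was higher in IMF cells by 1.33 (SE 0.25, limma adjusted p = 3.73e-04) and *CFI* by 1.0005 (SE 0.22, limma adjusted p = 0.0015). So 2 of the 6 were called higher and 1 lower, where 4.31% of all genes were called higher and 2.65% lower. *MASP1*, with means of 108 FPKM in BF-8d and 101 FPKM in IMF-8d, had a difference of -0.09 (SE 0.24, limma adjusted p = 0.797). *C3* and *SERPING1* had differences of 0.84 (SE 0.56, limma adjusted p = 0.263) and 0.96 (SE 0.31, limma adjusted p = 0.0213), although each IMF-8d library was above each BF-8d library for both genes. *CFI* was not called without BF-8d replicate 1 (0.81, limma adjusted p = 0.0122), IMF-8d replicate 1 (0.99, limma adjusted p = 0.00676) or IMF-8d replicate 2 (0.80, limma adjusted p = 0.0119), under median-ratio scaling (0.92) or quantile normalization (0.94), or with only the 2 groups (adjusted p = 0.0153). *SERPING1* was called without BF-8d replicate 2 (1.28, limma adjusted p = 0.00553). Among markers on day 8, 6 of 11 inflammatory response genes were called lower in IMF cells and 1 higher. Of 15 interferon response genes, 7 were called lower and 0 higher. Of 7 stromal markers 1 was called higher and 1 lower, and of 5 adipocyte markers 1 lower. *DES* and 1 of 2 endothelial markers were called higher, and 0 of 3 immune markers were called. The part of these markers was not tested.

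**Figure D3:**
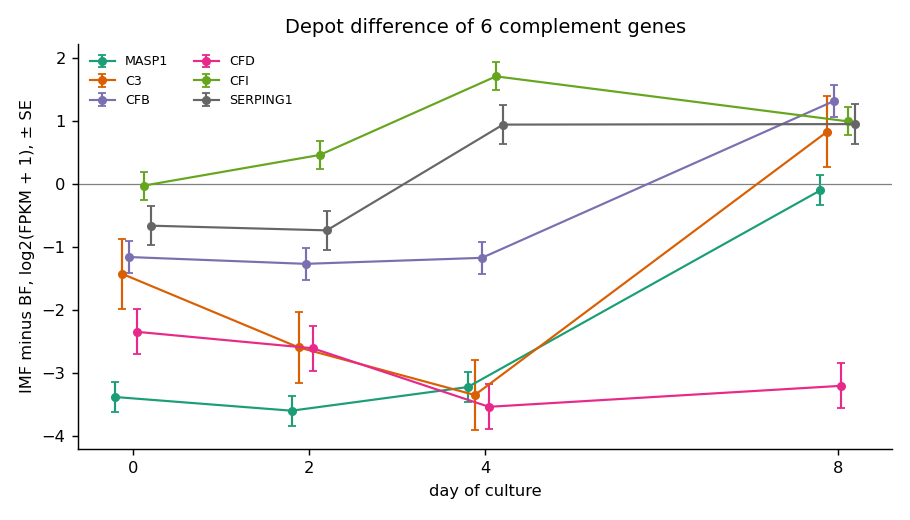
Difference between the depots (IMF minus BF) in log2(FPKM + 1), with its SE, against the day of culture for 6 complement genes. *MASP1*, *C3* and *CFB* lie below 0 through day 4 and then at -0.09, 0.84 and 1.33 on day 8, while *CFD* lies at -2.34, -2.60, -3.53 and -3.20 on days 0, 2, 4 and 8.

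The changes of the depots themselves were then compared with each other. In the contrasts that start on day 0 *MASP1* was not counted. From day 0 to day 2 limma called 0 of the other 5, with 0 at an unadjusted p below 0.05 (30.2% of all genes), and called 2.45% of all genes in either direction. From day 2 to day 4 it called 0 of the 6, with 2 at an unadjusted p below 0.05 (28.6% of all genes), where 1.76% of all genes were called with a higher IMF change and 1.3% with a lower one. These 2 were *SERPING1* (1.68, SE 0.44, limma adjusted p = 0.0176) and *CFI* (1.25, SE 0.31, limma adjusted p = 0.0132). Both were called without BF-4d replicate 1 (2.08, limma adjusted p = 0.00181, and 1.43, limma adjusted p = 0.0056), and *CFI* without BF-2d replicate 2 (1.41, limma adjusted p = 0.0078). Over day 4 to day 8, 3 of the 6 were called with a larger IMF change (*MASP1*, *C3* and *CFB*), against 3.81% of all genes higher and 2.58% lower. Over day 0 to day 8, 1 of the 5 (*CFB*) was called, against 2.86% of all genes higher and 2.13% lower. The values of *C3*, *SERPING1* and *CFI* in that contrast were 2.26 (SE 0.79, limma adjusted p = 0.0541), 1.61 (SE 0.44, limma adjusted p = 0.015) and 1.02 (SE 0.31, limma adjusted p = 0.0282). With only the groups compared, *C3* (adjusted p = 0.00131) and *SERPING1* (adjusted p = 0.00298) were called there.

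The BF libraries of days 4 and 8 varied widely in several of these genes, and other genes moved with them. In BF-8d, *C3*, *CFB*, *CFI* and *SERPING1* were each lowest in replicate 1 and highest in replicate 2, whereas *MASP1* was lowest in replicate 2. The sum of 15 interferon response genes in the table was 514, 10477 and 4215 FPKM in replicates 1, 2 and 3, and the sum of 11 inflammatory response genes (*CXCL8*, *IL6*, *CCL2* and others) was 7570, 19259 and 14077 FPKM, in the same order as those 4 genes. The immune marker sum had that order too (8.06, 13.3 and 10.7 FPKM), and the adipocyte sum the reverse one (622, 281 and 387 FPKM). *CFD* did not share that order, with its highest value in replicate 3. In BF-4d, replicate 3 had the highest *C3* and *CFD* and the lowest *SERPING1* and *CFI*. Its inflammatory sum was 20781 FPKM, against 3196 and 4081 FPKM in replicates 1 and 2, its interferon sum was 409 FPKM, against 147 and 107 FPKM, and its immune marker sum was 18.9 FPKM, against 3.83 and 3.15 FPKM. In IMF-8d the inflammatory sum was 3410 to 4536 FPKM, above 710 to 1054 FPKM on the earlier IMF days, while the interferon sum was 713 to 852 FPKM, below 1201 to 1810 FPKM on those days. The part of these responses in the complement values was not tested.

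**Figure D4:**
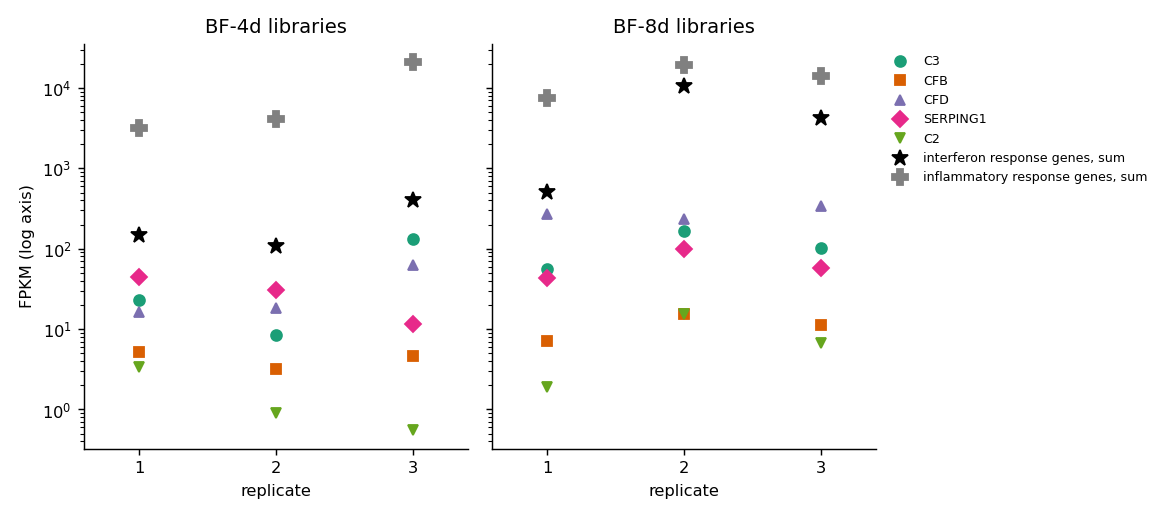
FPKM (log axis) of 5 complement genes and the summed FPKM of 2 response lists in the 3 libraries of BF-4d (left) and of BF-8d (right). In BF-8d *C3*, *CFB*, *SERPING1*, *C2* and both sums are lowest in replicate 1 and highest in replicate 2, while in BF-4d replicate 3 *C3* and *CFD* are highest and *SERPING1* and *C2* lowest.

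On the first principal component of all tested genes BF-2d replicate 3 lay at -17.2, against 26.5 and 27.2 for the other BF-2d libraries, and it held the lowest *MASP1*, *C3*, *CFB* and *CFD* of its group. BF-4d replicate 3 and BF-8d replicate 2 held the highest *C3* of their groups (130 and 167 FPKM), and BF-8d replicate 2 also the highest *CFB* and *SERPING1*. Leaving out libraries that are extreme in the same genes narrows their spread, so the p-values of such a fit are descriptions only. With BF-2d replicate 3, BF-4d replicate 3 and BF-8d replicate 2 left out together, a choice made after seeing the data, the BF step of *C3* from day 4 to day 8 was 2.34 (limma adjusted p = 1.40e-05) and that of *CFD* was still called. *SERPING1* was then 0.43 (limma adjusted p = 0.11) and *CFB* 0.96 (limma adjusted p = 0.00715) in that step, neither of them called. *MASP1* was called lower in it (-1.07, limma adjusted p = 1.36e-04), and *C3* was called higher from BF-0d to BF-2d (1.299, limma adjusted p = 8.26e-04). *C3* and *SERPING1* were both called higher in IMF-8d than in BF-8d without those libraries, by 1.22 (limma adjusted p = 0.00181) and 1.28 (limma adjusted p = 1.54e-05), and their IMF changes from day 0 to day 8 were called larger than the BF changes, by 2.64 (limma adjusted p = 4.03e-05) and 1.93 (limma adjusted p = 8.57e-06).

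The rest of the complement system was followed in a list of 43 other genes, of which 32 had a row and 16 were tested. The tested genes that were called at least once were *C2*, *C4A*, *COLEC12*, *CLU*, *C5AR2* and *ITGB2*. *MASP2*, *CFP* and *C1QBP* reached a group mean of 1 FPKM and were called nowhere. *C1QA*, *C1QB*, *MBL2*, *C8A*, *CPN1*, *CPN2* and *VSIG4* were listed at 0 in all 24 libraries. The 7 terminal components, which build the membrane attack complex, summed to at most 1.34 FPKM in any library.

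*C4A*, the classical and lectin substrate whose cleavage product joins the C3 convertase, had the largest depot difference of that list. It had 1.55, 1.68 and 1.86 FPKM in BF-0d and 0.302, 0.973 and 0.373 FPKM in BF-8d. It had 8.75, 9.24 and 10.9 FPKM in IMF-0d and 19.0, 20.0 and 22.2 FPKM in IMF-8d. *C4A* was higher in IMF cells on every day, by 1.98, 2.79, 3.85 and 3.81 on days 0, 2, 4 and 8 (SE 0.16 each, limma adjusted p from 1.23e-12 to 3.55e-08). It thus stood on the opposite side to *C3*, *MASP1*, *CFB* and *CFD* on days 2 and 4. *C2*, the protease that pairs with C4, had 11.9, 10.3 and 13.3 FPKM in BF-0d, 3.41, 0.894 and 0.550 FPKM in BF-4d, and 10.9, 9.73 and 10.2 FPKM in IMF-4d. It was higher in IMF cells by 2.26 (SE 0.42, limma adjusted p = 2.08e-04) on day 4 and by 1.67 (SE 0.42, limma adjusted p = 0.00391) on day 8. The day 8 value was not called without BF-8d replicate 1 (1.01, limma adjusted p = 0.0265), BF-8d replicate 3 (1.72, limma adjusted p = 0.0104), IMF-8d replicate 1 (1.63, limma adjusted p = 0.0156) or IMF-8d replicate 2 (1.61, limma adjusted p = 0.0138), or with only those 2 groups in the fit (adjusted p = 0.103).

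*CLU* encodes clusterin, a fluid-phase inhibitor of the terminal complex, and had the highest level of the list. It had 1472, 1556 and 1734 FPKM in BF-0d and 375, 328 and 335 FPKM in BF-8d, and it fell by 2.19 (SE 0.19, limma adjusted p = 1.75e-08) between them. Over the 12 IMF libraries it stayed between 1414 and 2123 FPKM with no called interval. *COLEC12*, a collectin of the cell surface, fell from day 0 to day 8 by 3.19 (SE 0.31, limma adjusted p = 5.96e-08) in BF and by 2.47 (SE 0.31, limma adjusted p = 2.97e-06) in IMF cells. The BF mean was 6.09 FPKM on day 4 and 1.67 FPKM on day 8, while the IMF mean was 37.8 FPKM on day 4 and 2.51 FPKM on day 8. *COLEC12* and *ITGB2* each overlap with an uncharacterized locus on the other strand. *C5AR2*, a receptor for the C5 fragment, rose from day 0 to day 8 by 1.58 (SE 0.15, limma adjusted p = 7.25e-08) in BF and by 1.52 (SE 0.15, limma adjusted p = 2.55e-07) in IMF cells, to means of 2.38 and 3.12 FPKM. *ITGB2*, an integrin chain of the complement receptors of leukocytes, rose by 1.15 (SE 0.14, limma adjusted p = 9.38e-07) in BF cells to a mean of 2.07 FPKM. Its IMF difference was 0.86 (SE 0.14, limma adjusted p = 5.40e-05), under the limit of 1, and the depots' changes differed by -0.29 (SE 0.19, limma adjusted p = 0.325).

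**Figure D5:**
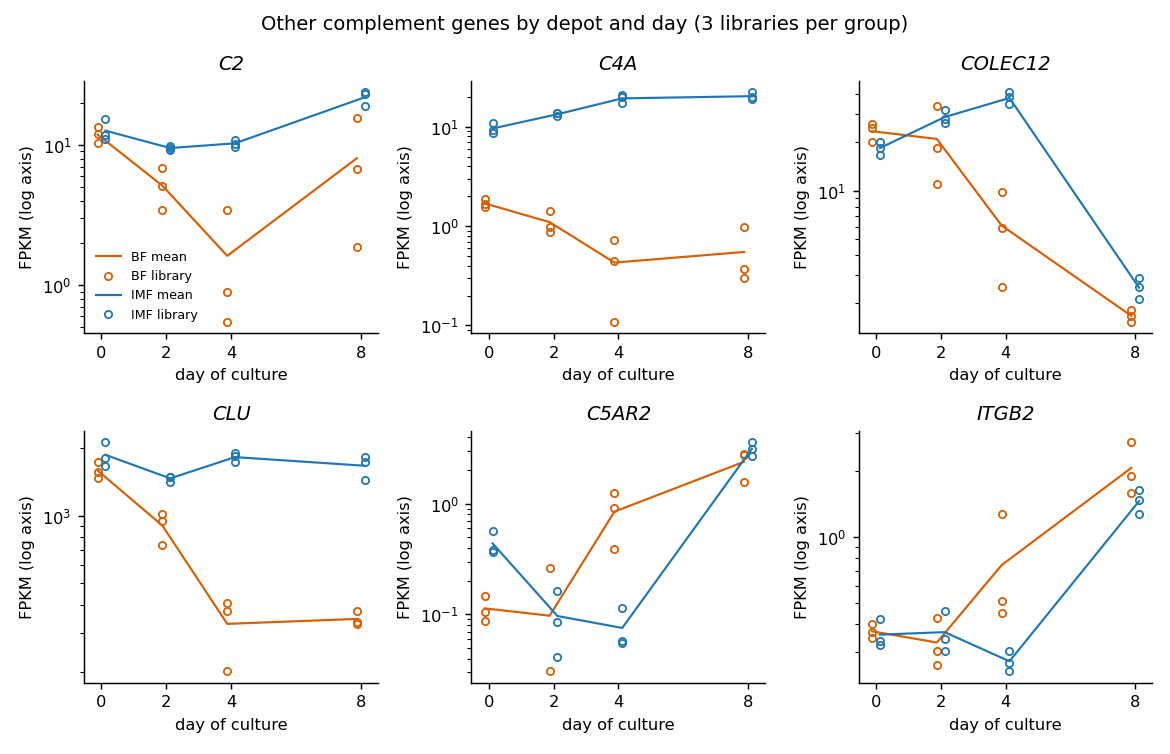
FPKM (log axis) of 6 other complement genes against the day of culture, drawn with 1 circle per library, 3 libraries per group, and lines through group means (BF orange, IMF blue). *C4A* and *CLU* part between the depots, with BF-8d means of 0.549 and 346 FPKM against IMF-8d means of 20.4 and 1667 FPKM, and the BF-2d replicate of *C5AR2* listed at 0 is not drawn.

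Of these 16 tested genes, limma called 2 lower from day 2 to day 4 (1.34% of all genes), 1 lower from day 4 to day 8 (1.14%), and 2 higher (6.28%) and 2 lower (7.39%) from day 0 to day 8 in BF cells. In IMF cells it called 1 higher (4.16%) and 1 lower (3.08%) from day 4 to day 8, and 2 higher (4.56%) and 1 lower (4.49%) from day 0 to day 8. The BF call from day 4 to day 8 was that of *COLEC12* (-1.27, SE 0.31, limma adjusted p = 0.00678), which was lost without any 1 of BF-4d replicates 1 and 2 and the 3 BF-8d libraries (-0.89 to -1.30, limma adjusted p from 0.0151 to 0.0575), with no filter on low values (adjusted p = 0.0128) and with only those 2 groups (adjusted p = 0.115). The IMF call of *C4A* from day 0 to day 8 (1.01, SE 0.16, limma adjusted p = 4.99e-05) fell under the limit of 1 without IMF-0d replicate 1 (0.95), IMF-0d replicate 2 (0.99) or IMF-8d replicate 3 (0.95), and it was lost at a pseudocount of 0.1 (1.08, limma adjusted p = 0.0228). Between the depots it called 1 higher on day 0 (1.87%), 1 on day 2 (2.71%), 4 on day 4 (6.6%) and 3 on day 8 (4.31%) in IMF cells, and 0 lower on those days, against 0.713%, 2.02%, 4.72% and 2.65% of all genes lower. At an unadjusted p below 0.05 in either direction were 3, 6, 11 and 7 of the 16, and 25.6%, 38%, 49.4% and 44.7% of all genes. It called 0 from day 0 to day 2 in either depot (2.71% of all genes higher and 3.87% lower in BF, 0.328% and 0.459% in IMF cells), with 8 in BF and 3 in IMF cells at an unadjusted p below 0.05 (41.2% and 21.2% of all genes). From day 2 to day 4 in IMF cells it called 0 (0.0372% of all genes in either direction), with 3 at an unadjusted p below 0.05 (8.34%). The median difference of the 16 from day 4 to day 8 was 0.04 in IMF and -0.01 in BF cells, close to the -0.07 and -0.05 of all tested genes.

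Within a depot the 6 genes followed each other to different degrees, given here as Pearson's r over 12 libraries that share their days and medium. In IMF cells *C3*, *CFB* and *CFD* correlated with each other at 0.983 to 0.987, *MASP1* with these 3 at 0.882 to 0.916, and *SERPING1* with these 3 at 0.935 to 0.963. These IMF values mostly restate the step to day 8, since *C3*, *CFB* and *CFD* held at most 2.42 FPKM in any earlier IMF library. In BF cells *C3* correlated with *CFD* at 0.885 and with *CFB* at 0.787, *MASP1* with these 3 at 0.00331 to 0.185, *SERPING1* with *C3* at -0.242, with *CFB* at 0.317 and with *CFD* at -0.00461, and *CFI* with *MASP1* at -0.721. Over all 24 libraries the gene whose log2(FPKM + 1) was most like that of *MASP1* was *MMP2* (r = 0.949), followed by *CRISPLD2* and *ZIC1*, among 7554 genes with a symbol and a group mean of at least 5 FPKM. For *C3* it was *RNF114* (r = 0.963), followed by *PNKD* and *ACSL1*. *CFB* was most like *RNASE4* (r = 0.937), *ARRDC2* and *CTSH*, and *CFD* most like *IL1A* (r = 0.963), *MOCOS* and *PORCN*. For *CFI* the nearest were *ANXA4* (r = 0.927), *LOX* and *HSPB6*, and for *SERPING1* they were *SYNGR1* (r = 0.877), *GALNS* and *GRN*. No pair of the 6 shared a gene among its nearest 3.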

How the data were processed

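Polyadenylated RNA was sequenced from 24 libraries in 8 groups of depot and day, 3 per group. The authors aligned the reads to Sscrofa11.1 with HISAT2 and assembled and quantified transcripts with StringTie 1.3.4d, and the deposited values are FPKM per gene, scaled by the authors for transcript length and mapped fragments. They called genes with DESeq2 1.6.3, a count tool that could not be run on FPKM. Low values did not fall on the steps of whole reads (6.81% of 426 low genes shared the commonest ratio), so the depth is unknown. FPKM summed to 307967 to 385768 per library.

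Of 21271 Ensembl IDs, 14815 matched a symbol in a name table. Genes were tested with FPKM summed over the libraries above 1 (16135 of 25462). Values were taken as log2(FPKM + 1), pseudocount 1, and fitted with limma 3.58.1 in R 4.3.3 (1 mean per group over all libraries, eBayes with trend and robust). A check of the fit on simulated data used independent normal noise and planted changes in well expressed genes only. It does not cover outlying libraries or low levels. Calls needed a Benjamini-Hochberg adjusted p below 0.01 and an absolute difference of at least 1, the limits of the authors' methods. This scale understates the change of low genes. The 12 pairwise differences and 4 contrasts of the depots' changes were each adjusted over all tested genes.

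The 6 genes, the list of 43 other complement genes and the marker lists were chosen with earlier results of these data known. Named were all listed members, the other complement genes called at least once or reaching a group mean of 1 FPKM, and the 3 genes most like each member by Pearson's r. Positions and upstream sequences are those of RefSeq for Sscrofa11.1. Alternatives were another pseudocount, filter, scaling, moderation or set of libraries in the fit, a replicate block, and leaving out each library of the groups compared. Small RNA libraries were not used here.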

Additional observations from a re-analysis of the deposited data

Results flagged for a closer look

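The listed results are those in which the change of IMF cells and that of BF cells over the same days differed by the test of the difference itself (limma, log2(FPKM + 1), IMF change minus BF change). From day 4 to day 8 the IMF change was larger by 3.12 for *MASP1* (SE 0.34, adjusted p = 2.94e-06), by 4.18 for *C3* (SE 0.79, adjusted p = 0.00109) and by 2.49 for *CFB* (SE 0.35, adjusted p = 6.85e-05). From day 0 to day 8 it was larger by 2.48 for *CFB* (SE 0.35, adjusted p = 7.66e-05).

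Of the other complement genes, from day 2 to day 4 the IMF change exceeded the BF change by 1.06 for *C4A* (SE 0.23, adjusted p = 0.0051), by 2.03 for *COLEC12* (SE 0.43, adjusted p = 0.00517) and by 1.82 for *CLU* (SE 0.27, adjusted p = 4.91e-04). From day 4 to day 8 the contrast was -2.21 for *COLEC12* (SE 0.43, adjusted p = 0.0013) and 1.05 for *C5AR2* (SE 0.22, adjusted p = 0.00199). From day 0 to day 8 it was 1.83 for *C4A* (SE 0.23, adjusted p = 1.59e-05) and 2.03 for *CLU* (SE 0.27, adjusted p = 3.63e-05). Several of these calls were lost with 1 library left out. *C4A* from day 2 to day 4 was lost without BF-2d replicate 3, BF-4d replicate 3, any 1 IMF-2d library, or IMF-4d replicate 1 or 2 (0.89 to 1.08, adjusted p from 0.0117 to 0.0177), and also at a pseudocount of 0.1 (1.89, adjusted p = 0.0195), with only the groups compared (adjusted p = 0.0341) and without the 3 BF libraries picked after seeing the data (0.78). *COLEC12* from day 2 to day 4 was lost without BF-2d replicate 3, any 1 IMF-2d library, or IMF-4d replicate 1 or 2 (1.64 to 2.10, adjusted p from 0.01 to 0.0158), with no filter on low values (adjusted p = 0.0109) and with only the groups compared (adjusted p = 0.0633). *C5AR2* fell under the limit of 1 without BF-4d replicate 3 (0.90), BF-8d replicate 2 (0.87) or IMF-8d replicate 3 (0.98), under median-ratio scaling (0.99) and quantile normalization (0.98), and without the 3 libraries (0.71), and with only the groups compared its adjusted p was 0.0181. *CLU* from day 2 to day 4 and *C3* from day 4 to day 8 were lost with only the groups compared (adjusted p = 0.0236 and 0.0209). Whether single libraries were outliers was not tested.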

How the results depend on the processing

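Of 36 called differences of the 6 genes, recomputed 564 times in all, the call was kept 526 times and lost 38 times, and the direction changed 0 times. Another filter, another moderation, a fit of only the groups compared and the replicate block leave a difference of group means as it is. In those settings the direction could not change, so only the calls were put to a test there. The cause of the changes below was not tested, except that a fit of only the groups compared has fewer libraries for the spread. For the 6 genes, the BF calls to day 2 were 1 instead of 2 under quantile normalization and 0 with only the groups compared. Those from day 2 to day 4 were 1 instead of 0 at a pseudocount of 0.1. With only the groups compared, the BF calls from day 4 to day 8 were 0 instead of 3, the depot calls of day 2 were 2 instead of 4, and the calls of the depots' changes from day 0 to day 8 were 3 instead of 1. With the 3 BF libraries left out that were picked after seeing the data, the depot calls of day 8 were 5 instead of 3, and those of the depots' changes 1 instead of 0 from day 2 to day 4 and 3 instead of 1 from day 0 to day 8.

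For the other complement genes, the BF calls to day 2 were 1 instead of 0 at a pseudocount of 0.1, under median-ratio scaling and under quantile normalization, and 2 without the 3 libraries. Those from day 2 to day 4 were 4 instead of 2 at the pseudocount of 0.1, 0 with only the groups compared and 1 without the 3 libraries. Those from day 4 to day 8 were 3 instead of 1 at the pseudocount of 0.1, 0 with no filter on low values, 2 under either scaling, 0 with only the groups compared and 2 without the 3 libraries. Depot calls were 2 instead of 1 on day 2 under quantile normalization and 7 instead of 4 on day 4 at the pseudocount of 0.1. Calls of the depots' changes were 2 instead of 0 from day 0 to day 2 without the 3 libraries, 0 instead of 3 from day 2 to day 4 with only the groups compared, and 1 instead of 2 from day 4 to day 8 under either scaling, with only the groups compared and without the 3 libraries.

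Leaving out 1 library of the groups compared at a time, the calls of the 6 genes ranged from 1 to 2 in BF to day 2, 0 to 1 to day 4 and 1 to 4 to day 8, from 0 to 1 in IMF to day 2, from 2 to 4 between the depots on day 2, and from 0 to 2 in the depots' changes from day 2 to day 4 and 1 to 2 from day 0 to day 8. For the other complement genes they ranged from 0 to 1 in BF to day 2 and 0 to 2 from day 4 to day 8, and in the depots' changes from 0 to 1, 1 to 3 and 1 to 2 over the 3 steps. The day 0 depot difference of *CFI*, -0.02 with all libraries, ranged from -0.105 to 0.0914 with 1 library left out and was above 0 without BF-0d replicate 1 (0.0435) or IMF-0d replicate 2. The untested *MASP1* contrast of the depots' changes to day 2, -0.22, ranged from -0.452 to 0.0331 and was above 0 without BF-2d replicate 1. With the replicate number as a block, 155 counts and values were recomputed. No call was lost, no other value of the 6 genes was called, and the counts stayed within 1.5 times. Each group held replicates 1, 2 and 3, so that block could change the spread but no difference. Same-numbered libraries did not deviate together (r from -0.246 to 0.457, and no comparison with all 3 above 0.1). Without read counts, the precision of low levels such as *C3* in IMF-0d and IMF-2d cannot be stated.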
